A study of Mus musculus with 12 samples.

Results

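A set of 41 genes that mark neural progenitors and the regions of the developing nervous system was measured in RNA from mouse teratomas. The genes were taken by symbol from the count file of each library and fall into 6 progenitor genes, 5 genes of neuronal commitment, 11 forebrain genes, 6 genes of the midbrain and isthmus, 2 hindbrain genes and 11 genes of the spinal cord and neural tube domains. Of the 41 symbols, 40 had a row among the 38986 genes of the files, and Eomes2 had none. A filter on low counts left 38 of them among the 18405 genes tested. Emx1 and Atoh1 did not pass it. The assignment of a gene to a region follows its best-known site of transcription in the embryo, and several of these genes are also transcribed elsewhere.

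The teratomas grew from R1 mouse ES cells carrying the pEZ-Lv235 lentiviral vector with its CAG promoter, which is active in most cell types, and the stable lines had been selected with puromycin. The vector was empty in the ET group, held WT Dnmt3L in the WT group, and held Dnmt3L with 1 lysine changed to arginine in the K238R and K412R groups, so all 4 groups shared the vector and the puromycin selection. Cells were injected under the skin of male mice of the immunodeficient NOD-Prkdc EM1 strain, 8 weeks old, and teratomas were collected at day 21. Each group had 3 libraries, 12 in all, and the study asked whether acetylation of Dnmt3L at these lysines bears on the differentiation of the cells. A group is 1 stable line, so a difference between groups and a difference between lines cannot be told apart. The labels name no batch and do not say whether the teratomas of a group came from separate mice, so the p-values measure the spread between these samples.

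Neural progenitors of the early neural tube transcribe SoxB1 factors, Nes and Hes genes, and leave the progenitor state as proneural basic helix-loop-helix factors rise. Along the head-to-tail axis, homeodomain and paired-box factors divide the tube into forebrain, midbrain, hindbrain and spinal cord, and the isthmus at the midbrain-hindbrain boundary acts as an organizer marked by En, Pax2, Pax5, Pax8 and Gbx2. Along the back-to-belly axis, Sonic hedgehog from the floor plate turns on ventral genes such as Nkx2-2 and Nkx6-1, while Pax3, Pax7 and Zic1 mark dorsal cells. Teratomas hold many tissues at once, and in bulk RNA fewer cells of a type and less RNA per cell cannot be told apart.

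Library totals lay between 16957677 and 18546100 counts, and a count of 0 allowed a level of up to 0.177 CPM (the count scaled to the library total) in the shallowest library, counting error only. Dnmt3l itself stood at 3.49 ± 3.66 CPM (SD over 3 libraries) in ET, 191 ± 22.2 in WT and 34.4 ± 7.29 in K412R. It stood at 1.18 ± 0.675 CPM in the 3 libraries labelled K238R, with raw counts between 10 and 35 where WT had 2941 to 3643, so these libraries went against their label at the transcript level and are called the K238R-labelled libraries throughout. Tissue of the nervous system was present in every library: the summed level of 8 neuron markers was 1959 to 3612 CPM and that of 8 glia markers 687 to 1834 CPM. ET replicate 2 stood apart from the other ET libraries for many of the genes described here. The counts of genes past the adjusted threshold are given with and without it, as is the 2-fold count in K412R against ET.

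Most of the regional genes were present at measurable levels, and the cortical genes Emx1, Emx2 and Tbr1 were among the lowest. Mean CPM over the 12 libraries reached 10 for 14 of the 40 genes and 1 for 36, and stayed under 1 for Emx1, Gsx2, Atoh1 and Mnx1. Per kilobase of transcript, which allows a rough comparison between genes, Sox2 had the highest level (70.6 CPM per kb, mean of 12 libraries) and Nes the next (37.3 CPM per kb). En1 (17.9 CPM per kb), Pax5 (17.1), Lhx1 (17.1) and Nkx2-2 (15.3) followed. Among the forebrain genes only Dlx1 (14.4 CPM per kb) came near them. The length used was the median over all protein-coding transcripts of a gene, short ones included. It was 787 bases for Dlx1, 1037.5 for Pax5 and 1201 for Lhx1, beside 2624 for En1. A short median raises the level per kb, so the ranks of Dlx1, Pax5 and Lhx1 depend on it. The cortical genes Emx2 (0.98 CPM per kb), Tbr1 (0.40 CPM per kb) and Emx1 (0.08 CPM per kb) lay near the bottom, next to the hindbrain gene Atoh1 (0.05 CPM per kb). Mnx1 (0.26 CPM per kb), Lhx6 (0.42), Gsx2 (0.47) and Pax7 (0.66) were low as well. Lhx2 (2.99 CPM per kb), Neurog2 (4.31) and Pax6 (5.80), genes of cortex and of other sites, were higher.

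Levels of these genes varied widely between libraries. The highest library held a median of 3.55 times the level of the lowest over the 38 genes tested, against 1.87 times over the 18057 tested genes with a count in every library, and the ratio reached 5 in 12 of the 38 (31.6%) against 11.0% of all. Neurog1 (59.3 times), Neurod4 (56.4 times) and Pax5 (39.5 times) varied most. Replicate 1 of the K238R-labelled libraries held the highest level of 16 of the 40 genes, 8 of them among the 11 forebrain genes. WT replicate 3 held the lowest level of 10 genes. Antisense or overlapping transcripts are listed beside Sox1, Sox2, Pax6, Dlx1, Emx2, Six3, Nkx2-2 and Lhx1, and whether the counting used strand is not given in the sources used here, so their reads cannot be told apart.

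**Figure D1:**
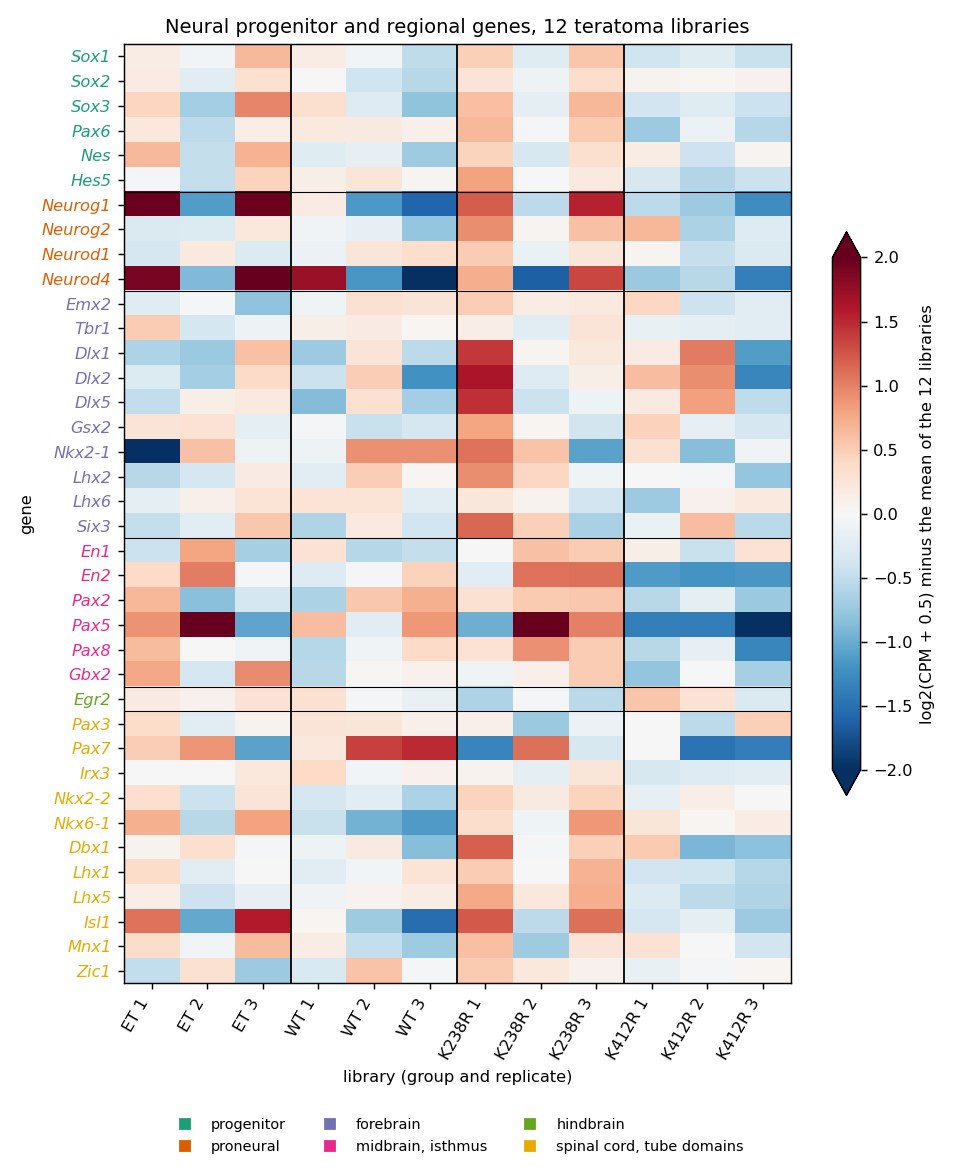
Heat map of the 38 tested genes (vertical axis, coloured by region) in the 12 libraries (horizontal axis, 3 per group), each cell giving log2(CPM + 0.5) minus the gene's mean over the 12 libraries, cut at -2 and 2. The darkest cells belong to Neurog1, Neurod4, Pax5, Pax7, Isl1 and Nkx2-1 and often differ between libraries of 1 group, while En2 and Pax5 are pale to dark blue in all 3 K412R libraries.

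The promoters of the genes that the comparisons turn on are shown because Dnmt3L acts with the enzymes that methylate cytosines in CG pairs, and CG pairs (the letters CG, which read the same on both strands) are in capitals. Methylation was not measured in these libraries. The 250 bases before the transcription start come from RefSeq on GRCm38.p6 and are written 5′ to 3′ on the gene's own strand. All 7 genes lie on the minus strand, so the start lies just below the lower coordinate of each window. Nkx6-1, Isl1 and Neurog1 are the genes that were at least 2-fold lower in WT than in ET, Pax5, Gbx2 and Neurod4 were at least 2-fold lower in K412R than in ET, and Pax7 was at least 2-fold lower in K412R than in WT. En2, the other gene past that criterion, had no entry.
Nkx6-1, chr5:101664712-101664961: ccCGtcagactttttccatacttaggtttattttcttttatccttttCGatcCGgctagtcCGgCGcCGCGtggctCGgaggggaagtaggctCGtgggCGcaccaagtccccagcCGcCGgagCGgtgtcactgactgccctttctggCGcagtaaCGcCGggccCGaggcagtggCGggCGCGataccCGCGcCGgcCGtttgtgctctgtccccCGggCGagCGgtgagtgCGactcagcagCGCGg
Isl1, chr13:116309689-116309938: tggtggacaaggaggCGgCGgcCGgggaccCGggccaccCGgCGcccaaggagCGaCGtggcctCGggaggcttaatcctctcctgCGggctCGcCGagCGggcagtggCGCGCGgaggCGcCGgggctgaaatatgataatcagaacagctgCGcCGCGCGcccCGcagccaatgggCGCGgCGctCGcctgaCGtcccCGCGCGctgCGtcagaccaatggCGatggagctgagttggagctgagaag
Neurog1, chr13:56252181-56252430: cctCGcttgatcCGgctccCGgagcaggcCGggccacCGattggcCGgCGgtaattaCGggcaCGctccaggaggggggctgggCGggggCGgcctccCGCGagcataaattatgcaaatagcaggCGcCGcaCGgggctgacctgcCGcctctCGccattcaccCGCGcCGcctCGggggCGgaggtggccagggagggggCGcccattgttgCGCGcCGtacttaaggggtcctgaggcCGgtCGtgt
Pax5, chr4:44710695-44710944: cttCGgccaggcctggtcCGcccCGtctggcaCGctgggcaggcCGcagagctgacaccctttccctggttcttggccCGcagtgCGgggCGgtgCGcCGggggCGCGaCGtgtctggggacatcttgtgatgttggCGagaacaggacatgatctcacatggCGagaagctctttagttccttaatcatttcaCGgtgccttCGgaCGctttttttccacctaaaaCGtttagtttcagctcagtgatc
Gbx2, chr1:89931177-89931426: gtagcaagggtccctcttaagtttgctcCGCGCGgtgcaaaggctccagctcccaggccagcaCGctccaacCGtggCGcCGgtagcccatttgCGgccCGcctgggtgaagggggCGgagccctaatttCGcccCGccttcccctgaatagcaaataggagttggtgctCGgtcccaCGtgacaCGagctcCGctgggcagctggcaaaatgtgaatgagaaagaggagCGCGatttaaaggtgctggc
Neurod4, chr10:130280139-130280388: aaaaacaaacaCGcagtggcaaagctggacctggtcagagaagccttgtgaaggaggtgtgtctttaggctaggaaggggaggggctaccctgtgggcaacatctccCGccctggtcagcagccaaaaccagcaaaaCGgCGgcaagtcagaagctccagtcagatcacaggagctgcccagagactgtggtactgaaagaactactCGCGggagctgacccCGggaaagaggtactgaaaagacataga
Pax7, chr4:139832969-139833218: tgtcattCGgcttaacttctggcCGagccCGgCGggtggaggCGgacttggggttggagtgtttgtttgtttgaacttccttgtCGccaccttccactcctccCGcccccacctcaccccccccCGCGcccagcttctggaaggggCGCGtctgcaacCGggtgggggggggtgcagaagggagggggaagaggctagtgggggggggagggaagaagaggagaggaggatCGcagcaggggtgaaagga
The window held 30 CG pairs at Nkx6-1, 33 at Isl1, 29 at Neurog1, 19 at Pax5, 18 at Gbx2, 13 at Pax7 and 7 at Neurod4. Windows were found for 35 of the 40 genes, with a median of 19 CG pairs (range 5 to 33), against a median of 6 over the 27025 genes with a window. At least 10 CG pairs were present in 29 of the 35 (82.9%) and in 40.2% of all genes, and at least 1 in 92.3% of all genes. The window of Isl1 had the most pairs, and 4.55% of all genes had as many. For Gbx2 the share with at least as many was 23.6%, and for Neurod4 48.6%.

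The comparison of WT with ET asked what expression of WT Dnmt3L goes with. Nkx6-1, Isl1 and Neurog1 were lower in WT by at least 2-fold with an unadjusted p under 0.05, the criterion the study used for its gene lists, and no gene of the list was higher by it. These 3 of 38 genes make 7.89%, and 6.08% of all genes tested met the same criterion in either direction. After Benjamini-Hochberg adjustment over all genes, 0 of the 38 passed 0.05 by edgeR's quasi-likelihood test, where 0.0489% of all genes did. At an unadjusted p under 0.05 there were 6 of 38 (15.8%; Sox2, Nes, Neurog1, Nkx2-2, Nkx6-1 and Isl1), all lower in WT, a smaller share than the 29.1% of all genes. DESeq2 called 1 after adjustment, Nkx6-1, beside 11.1% of all genes it gave an adjusted p. For none of the 38 were the 3 WT libraries apart from the 3 ET libraries, against 20.8% of all genes. Over the 38 genes, 24 had a negative log2 fold change and the median was -0.22, beside -0.01 over all genes. With ET replicate 2 left out, 9 of the genes were past the adjusted threshold, with Sox2, Sox3, Nes, Neurog1, Gbx2, Nkx2-2, Nkx6-1 and Isl1 lower and Zic1 higher, beside 31.0% of all genes. Without WT replicate 1, Nkx6-1 passed, beside 6.93% of all genes. The count past the 2-fold criterion was 1, Nkx6-1, without ET replicate 1, ET replicate 3, WT replicate 2 or WT replicate 3, where 2.87% to 4.77% of all genes met it. It was 5 without WT replicate 1, where 9.55% of all genes met it.

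The comparison of the K238R-labelled libraries with WT shares the WT libraries with the one above. Nkx6-1 and Isl1 were higher in the K238R-labelled libraries by the 2-fold criterion, 2 of 38 (5.26%), beside 5.28% of all genes. By edgeR's quasi-likelihood test 0 genes passed after adjustment (0.174% of all genes did), and 6 (15.8%) had an unadjusted p under 0.05, all higher (Sox2, Neurog2, Nkx2-2, Nkx6-1, Lhx5 and Isl1), beside 17.6% of all genes. DESeq2 called 2, Nkx2-2 and Nkx6-1, beside 4.13% of all genes. The groups did not overlap for 5 of 38 genes, with Neurog2, Nkx2-2, Nkx6-1 and Lhx5 higher and Pax3 lower, beside 24.0% of all genes. A positive log2 fold change was found for 31 of 38 genes, with a median of 0.47 beside 0.00 over all genes. The count past the 2-fold criterion was 6 without replicate 2 of the K238R-labelled libraries (7.28% of all genes) and 1 without replicate 3 of them, ET replicate 1, WT replicate 3 or any 1 K412R library. In the fits that gave 1, 4.5% to 5.31% of all genes met it. Nkx2-2 and Nkx6-1 passed the adjusted threshold without ET replicate 2, as did 4.3% of all genes.

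In K412R against WT, which again shares the WT libraries, En2, Pax5 and Pax7 were lower by the 2-fold criterion, 3 of 38 (7.89%), beside 5.05% of all genes. After adjustment 0 passed by edgeR's quasi-likelihood test (2.02% of all genes did), and 10 (26.3%, beside 22.8% of all genes) had an unadjusted p under 0.05, of which Sox2 and Nkx6-1 were higher and Pax6, Hes5, En2, Pax5, Pax7, Irx3, Lhx1 and Lhx5 lower. DESeq2 called 3, En2, Pax7 and Nkx6-1, beside 9.26% of all genes. The groups did not overlap for 12 of 38 genes (31.6%), 3 higher and 9 lower, at the background of 31.1% of all genes. The log2 fold change was negative for 24 of the 38, with a median of -0.26. Without WT replicate 1 the count past the 2-fold criterion was 5 (7.61% of all genes), and without WT replicate 3 it was 1, En2 (3.86%). En2 passed the adjusted threshold without ET replicate 2 (8.2% of all genes) or replicate 1 of the K238R-labelled libraries (1.43%), and Nkx6-1 without ET replicate 2.

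Set against ET, the K238R-labelled libraries had 0 genes past the 2-fold criterion, where 0.951% of all genes were, and 0 past the adjusted threshold by edgeR's quasi-likelihood test, where 0.0% of all genes were. Emx2 and Lhx5 (5.26% of the 38, beside 5.58% of all genes) had an unadjusted p under 0.05, both higher, and DESeq2 called 0 after adjustment, beside 0.029% of all genes. The groups did not overlap for 3 of 38 genes, Emx2 and Lhx5 higher and Egr2 lower, beside 9.18% of all genes. The median log2 fold change of the 38 was 0.26. Without ET replicate 1 the 2-fold criterion was met by 1 gene (Pax2), without ET replicate 3 by 2 (Dlx1 and Lhx2) and without replicate 3 of the K238R-labelled libraries by 1 (Lhx2). The shares of all genes were 1.33%, 1.47% and 1.03% in the same order.

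K412R against ET had the largest number past the 2-fold criterion, 5 of 38 (13.2%), beside 1.59% of all genes: Neurog1, Neurod4, En2, Pax5 and Gbx2, all lower. By edgeR's quasi-likelihood test 0 passed after adjustment, as did 0.0% of all genes, and 9 (23.7%) had an unadjusted p under 0.05, all lower (the same 5 and Sox1, Pax8, Irx3 and Lhx1), beside 7.86% of all genes. DESeq2 called 1, En2, beside 0.472% of all genes. The groups did not overlap for 6 genes, Sox1, En2, Pax5, Pax8, Irx3 and Lhx1, all lower, beside 10.8% of all genes. A negative log2 fold change was found for 29 of the 38, with a median of -0.34 beside -0.02 over all genes. Without ET replicate 2 the count past the 2-fold criterion was 8 (4.61% of all genes), and without K412R replicate 3 it was 2, En2 and Pax5 (1.21%). This comparison shares the ET libraries with those of WT and of the K238R-labelled libraries.

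**Figure D2:**
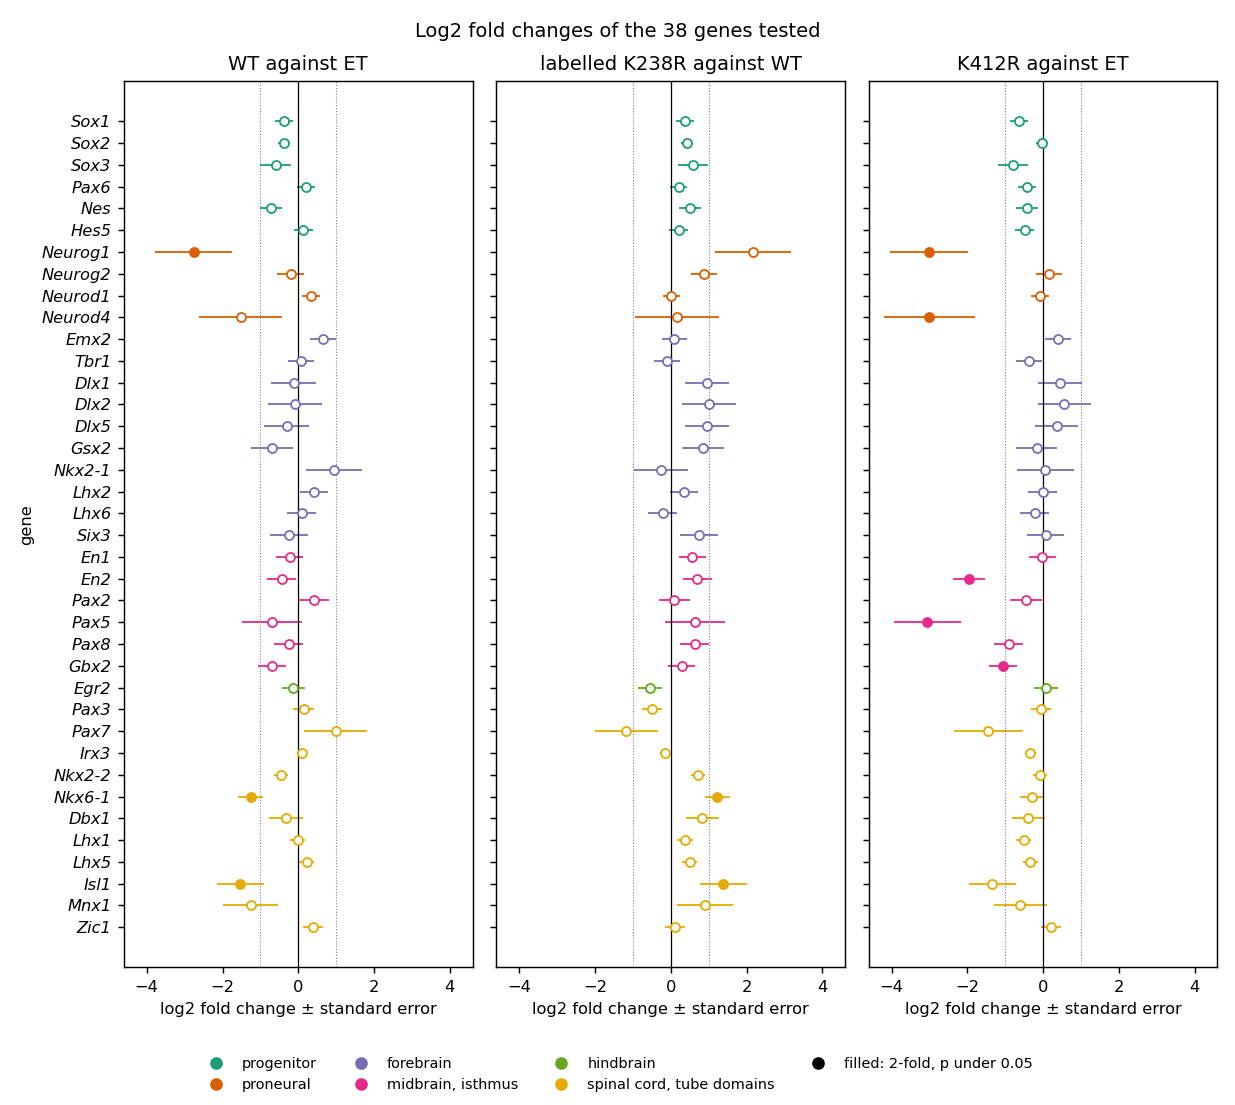
Log2 fold change with its standard error (horizontal axis) of each of the 38 tested genes (vertical axis, coloured by region) in WT against ET, the K238R-labelled libraries against WT, and K412R against ET. Filled points are at least 2-fold (dotted lines) with an unadjusted p under 0.05: Neurog1, Nkx6-1 and Isl1 on the left, Nkx6-1 and Isl1 in the middle, and Neurog1, Neurod4, En2, Pax5 and Gbx2 on the right.

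Of the 6 progenitor genes, none met the 2-fold criterion with all 12 libraries in any comparison, and without ET replicate 2 Nes met it in WT against ET and Sox3 in K412R against ET. Sox2, which maintains neural progenitors and also pluripotent cells, was at 159, 124 and 176 CPM in ET, 143, 108 and 97.3 in WT, 170, 133 and 182 in K238R-labelled libraries, and 150, 147 and 152 in K412R. All 3 K412R libraries lay above all 3 WT libraries, while WT overlapped ET and the K238R-labelled libraries. The log2 fold change of Sox2 was -0.38 in WT against ET (standard error, SE, of 0.16, adjusted p = 0.148), 0.44 in the K238R-labelled libraries against WT (0.16, adjusted p = 0.201) and 0.35 in K412R against WT (0.16, adjusted p = 0.213). The summed level of 8 markers of pluripotent cells was, like Sox2, lowest in WT replicates 2 and 3, at 35.2 and 29.8 CPM. It did not follow Sox2 in every library. Replicate 3 of the K238R-labelled libraries had the highest Sox2 and a sum of 53.0 CPM, below WT replicate 1 (80.9 CPM). The sum was 82.9 to 155 CPM in ET and 29.8 to 80.9 in WT. It was 53.0 to 82.4 CPM in the K238R-labelled libraries and 69.9 to 80.2 in K412R. None of the 8 was at 0 in every library, and the part of pluripotent cells in the level of Sox2 was not tested.

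Nes, the intermediate filament of neural progenitors, was at 281 ± 109 CPM (SD, n = 3) in ET and 168 ± 32.8 in WT (log2 fold change -0.72, SE 0.29, adjusted p = 0.140). ET replicate 2, at 155 CPM, lay below WT replicates 1 and 2, so the groups overlapped, and without that library Nes passed both thresholds (adjusted p = 0.00930). The level was 244 ± 63.6 CPM in the K238R-labelled libraries and 208 ± 40.7 in K412R. Sox1, a SoxB1 factor of the neural plate, stood at 47.6 ± 12.6 CPM in ET, 36.1 ± 8.13 in WT, 48.4 ± 13.5 in the K238R-labelled libraries and 30.3 ± 2.31 in K412R. Its 3 K412R libraries (28.5 to 32.9 CPM) lay below all ET libraries (37.5 to 61.7 CPM; log2 fold change -0.64, SE 0.23, adjusted p = 0.559). Sox3, the other SoxB1 factor, ranged from 4.05 to 15.1 CPM, and the only pair of groups that did not overlap was K412R (5.39 to 6.22 CPM) below the K238R-labelled libraries (6.45 to 12.1 CPM).

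Pax6, which patterns cortex, eye and ventral neural tube, and Hes5, a target of Notch that holds cells in the progenitor state, were each lowest in K412R. Pax6 stood at 15.2 ± 3.97 CPM in ET, 17.3 ± 0.569 in WT, 20.7 ± 4.97 in the K238R-labelled libraries and 11.2 ± 2.72 in K412R. Its K412R libraries did not overlap those of WT (log2 fold change -0.64, SE 0.24, adjusted p = 0.148). Hes5 stood at 9.10 ± 3.03, 9.83 ± 0.690, 11.7 ± 3.76 and 6.45 ± 0.656 CPM in the same order, again with no overlap between K412R and WT (log2 fold change -0.63, SE 0.26, adjusted p = 0.183). All 6 progenitor genes had a negative log2 fold change in K412R against ET, with a median of -0.46, and a positive one in the K238R-labelled libraries against WT, with a median of 0.41.

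Among the genes of neuronal commitment, Neurog1 and Neurod4 differed most between groups and also between libraries of a group. Neurog1, a proneural factor of sensory ganglia and dorsal progenitors, was at 6.77, 0.354 and 6.73 CPM in ET, 1.57, 0.335 and 0.114 in WT, 3.77, 0.778 and 4.89 in K238R-labelled libraries, and 0.780, 0.622 and 0.281 in K412R. Replicate 2 of ET lay inside the range of WT, with 6 counts where the other ET libraries had 119 and 121. In WT against ET its log2 fold change was -2.76 (SE 1.01, adjusted p = 0.124). The 2-fold criterion was lost without ET replicate 1 (-2.40), ET replicate 3 (-2.37), WT replicate 2 (-2.44) or WT replicate 3 (-2.28), and the log2 fold change reached -4.28 without WT replicate 1. Without ET replicate 2 it was -3.29 with an adjusted p of 0.0130, and over all alternatives the adjusted p lay between 0.0130 and 0.399.

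In K412R against ET the log2 fold change of Neurog1 was -3.01 (SE 1.04, adjusted p = 0.532), lost only without K412R replicate 3 (-2.65) among the 12 fits that leave out a library. Without ET replicate 2 it was -3.54, with an adjusted p of 0.0572. The K238R-labelled libraries lay above WT by 2.17 on the log2 scale (SE 1.01, adjusted p = 0.291), which did not meet the criterion.

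Neurod4, which acts downstream of the neurogenins in cells leaving the cycle, was at 13.0, 1.47 and 22.5 CPM in ET, 11.5, 1.12 and 0.399 in WT, 5.5, 0.667 and 8.69 in K238R-labelled libraries, and 1.67, 1.98 and 0.898 in K412R. As with Neurog1, ET replicate 2 and replicate 2 of the K238R-labelled libraries were low and the others of those groups high, so that K412R overlapped every group. Its log2 fold change in K412R against ET was -3.01 (SE 1.20, adjusted p = 0.589). The criterion was lost without ET replicate 3 (-2.22), K412R replicate 1 (-3.10), K412R replicate 2 (-3.27) or K412R replicate 3 (-2.70), and without ET replicate 2 it was -3.51 (adjusted p = 0.124). Against ET, WT lay at -1.52 (SE 1.10, adjusted p = 0.357).

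Neurog2, a proneural factor of cortex, midbrain and motor neuron progenitors, was highest in the K238R-labelled libraries (13.6 ± 4.07 CPM, SD, n = 3), whose 3 libraries lay above the 3 of WT (7.20 ± 1.86; log2 fold change 0.87, SE 0.35, adjusted p = 0.232). ET stood at 8.40 ± 1.87 CPM and K412R at 9.24 ± 4.73. Neurod1, a factor of differentiating neurons, stayed between 6.28 and 12.8 CPM with all groups overlapping. Neuron markers, those of young neurons such as Dcx included, were not lowest in WT by their sum. The sum of the 8 was 1959 to 2800 CPM in ET, 2648 to 3612 in WT, 2627 to 3185 in the K238R-labelled libraries and 1967 to 2314 in K412R. Of the 8, 7 had an unadjusted p under 0.05 as higher in WT than in ET, beside 29.1% of all genes in either direction, and none of them passed the adjusted threshold.

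The forebrain genes gave no difference between groups past the 2-fold criterion, and most were low. Dlx1, Dlx2 and Dlx5, which specify inhibitory neurons of the ventral forebrain, were each highest in replicate 1 of the K238R-labelled libraries and next highest in K412R replicate 2. Dlx1 was at 6.25, 5.72 and 15.1 CPM in ET, 5.79, 11.9 and 6.73 in WT, 27, 10.3 and 11.6 in K238R-labelled libraries, and 11.1, 20.8 and 4.27 in K412R. Dlx2 reached 14.6 CPM in that highest library and was lowest in K412R replicate 3 at 1.46 CPM, and Dlx5 ran from 1.69 CPM in WT replicate 1 to 10.5 CPM in that highest library. Every pair of groups overlapped for the 3 Dlx genes. Their largest log2 fold change was 1.01 for Dlx2 in the K238R-labelled libraries against WT, with a standard error of 0.70 and an adjusted p of 0.444.

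Six3, a factor of the anterior forebrain and eye, was also highest in replicate 1 of the K238R-labelled libraries (13.0 CPM) and lowest in replicate 3 of them (3.37 CPM), so that 1 group held both ends of the range. The same library was highest for Lhx2 (6.79 CPM), a selector of cortex and eye, for Nkx2-1 (8.73 CPM), the factor of the medial ganglionic eminence and hypothalamus and also of lung and thyroid, and for Gsx2 (1.46 CPM), which marks the lateral ganglionic eminence. Nkx2-1 was at 0.455, 6.07 and 3.56 CPM in ET and 8.73, 6.0 and 1.57 in the K238R-labelled libraries, a 19.2-fold range over the 12 libraries. The 8 lung and thyroid markers summed to 4.89 to 15.9 CPM, highest in K412R, where Nkx2-1 was 3.49 ± 1.5 CPM (SD, n = 3), and Scgb1a1 was at or under 0.0590 CPM in every library. The 8 retina markers summed to 6.35 to 18 CPM, with Crx at or under 0.109 CPM.

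Emx2, a factor of caudal cortex and also of the urogenital ridge, was at 1.59 ± 0.541 CPM in ET and 2.69 ± 0.430 in the K238R-labelled libraries, with no overlap of their libraries (log2 fold change 0.74, SE 0.34, adjusted p = 0.805). Tbr1, a marker of early cortical neurons, stayed between 0.708 and 1.71 CPM and Lhx6, a marker of interneurons from the medial ganglionic eminence, between 0.613 and 1.74 CPM. Emx1, a marker of dorsal cortex, had between 0 and 5 counts in a library, at most 0.271 CPM, and 0 counts in 3 of the 12. A change in Emx1 was not detectable at this depth.

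Of the isthmus genes, En2 and Pax5 were low in all 3 K412R libraries, and Gbx2 was past the 2-fold criterion in K412R against ET. En2, an Engrailed factor of midbrain and cerebellum, was at 5.40, 8.67 and 3.89 CPM in ET, 3.26, 3.90 and 5.70 in WT, 3.40, 9.06 and 9.23 in K238R-labelled libraries, and 1.56, 1.47 and 1.52 in K412R. The highest K412R library lay below the lowest library of any other group, and the 3 K412R libraries were close to each other. Its log2 fold change was -1.96 against ET (SE 0.42, adjusted p = 0.292) and -1.52 against WT (0.42, adjusted p = 0.0768). En2 met the 2-fold criterion in all 12 fits that leave out a library, in both comparisons, with log2 fold changes between -2.19 and -1.58 against ET and between -1.70 and -1.24 against WT. The adjusted p ranged over the alternatives from 0.00332 to 0.848 against ET and from 0.00998 to 0.291 against WT, the lowest by DESeq2 in both.

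Pax5, a paired-box factor of the isthmus and also of B lymphocytes, was at 21.3, 53.3 and 5.11 CPM in ET, 17.3, 9.59 and 20.8 in WT, 5.39, 48.1 and 23.0 in K238R-labelled libraries, and 4.01, 3.96 and 1.35 in K412R. All K412R libraries lay below all others, while the other 3 groups overlapped one another and each of ET and the K238R-labelled libraries spanned a wide range. In K412R against ET the log2 fold change was -3.06 (SE 0.89, adjusted p = 0.426), or -2.04 without ET replicate 2, and the 2-fold criterion held in all 12 fits that leave out a library. In K412R against WT it was -2.36 (SE 0.88, adjusted p = 0.147), and the criterion was lost without WT replicate 3 (-2.09) or K412R replicate 3 (-1.97). Of 8 B cell markers, a list added after the values of Pax5 were seen, 7 had a row and they summed to 0.890 to 2.37 CPM, highest in K412R. Cd79a was at or under 0.281 CPM in every library.

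Gbx2, which sets the hindbrain side of the boundary, was at 12.3, 5.43 and 14 CPM in ET, 4.61, 7.14 and 7.53 in WT, 6.58, 7.56 and 10.2 in K238R-labelled libraries, and 3.84, 7.07 and 4.27 in K412R. ET replicate 2 lay inside the K412R range. The log2 fold change of K412R against ET was -1.06 (SE 0.37, adjusted p = 0.538), and it fell short of 2-fold without ET replicate 1 (-0.94), ET replicate 3 (-0.79), K412R replicate 1 (-0.90) or K412R replicate 3 (-0.89). Without ET replicate 2 it was -1.35, with an adjusted p of 0.0539.

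Pax8 and Pax2, paired-box factors of isthmus, ear and kidney, were also lowest in K412R by group mean. Pax8 stood at 5.35 ± 1.68 CPM in ET, 4.38 ± 1.6 in WT, 7.04 ± 1.68 in the K238R-labelled libraries and 2.79 ± 1.22 in K412R, whose 3 libraries lay below those of ET (log2 fold change -0.91, SE 0.39, adjusted p = 0.613). Pax2 stood at 7.47 ± 4.41, 9.64 ± 4.28, 10.7 ± 0.990 and 5.39 ± 1.21 CPM in the same order, with K412R overlapping ET and WT. Kidney markers summed to 17.9 to 29.7 CPM and differed little between groups, chiefly through Eya1 (15.4 to 26.6 CPM). Umod was at or under 0.0561 CPM and Slc34a1 at or under 0.114 CPM in every library. The 8 markers of ear placode and epidermis summed to 39.0 to 148 CPM, with Krt5 at 14.2 to 91.4 CPM and Oc90 at or under 0.393 CPM. The part of kidney or ear in the levels of Pax2 and Pax8 was not tested.

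En1, the partner of En2 in the midbrain and a marker of spinal V1 interneurons, went another way: it stood at 45.9 ± 27.2 CPM in ET, 38.6 ± 13.8 in WT, 58.4 ± 11.9 in the K238R-labelled libraries and 44.8 ± 11.2 in K412R. Its log2 fold change in K412R against ET was -0.03 (SE 0.36), beside -1.96 for En2. ET replicate 2 had the highest En1 (77.1 CPM) and the highest Pax5 (53.3 CPM) of the 12 libraries. All 6 isthmus genes had a negative log2 fold change in K412R against ET (median -0.98) and a positive one in the K238R-labelled libraries against WT (median 0.60).

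**Figure D3:**
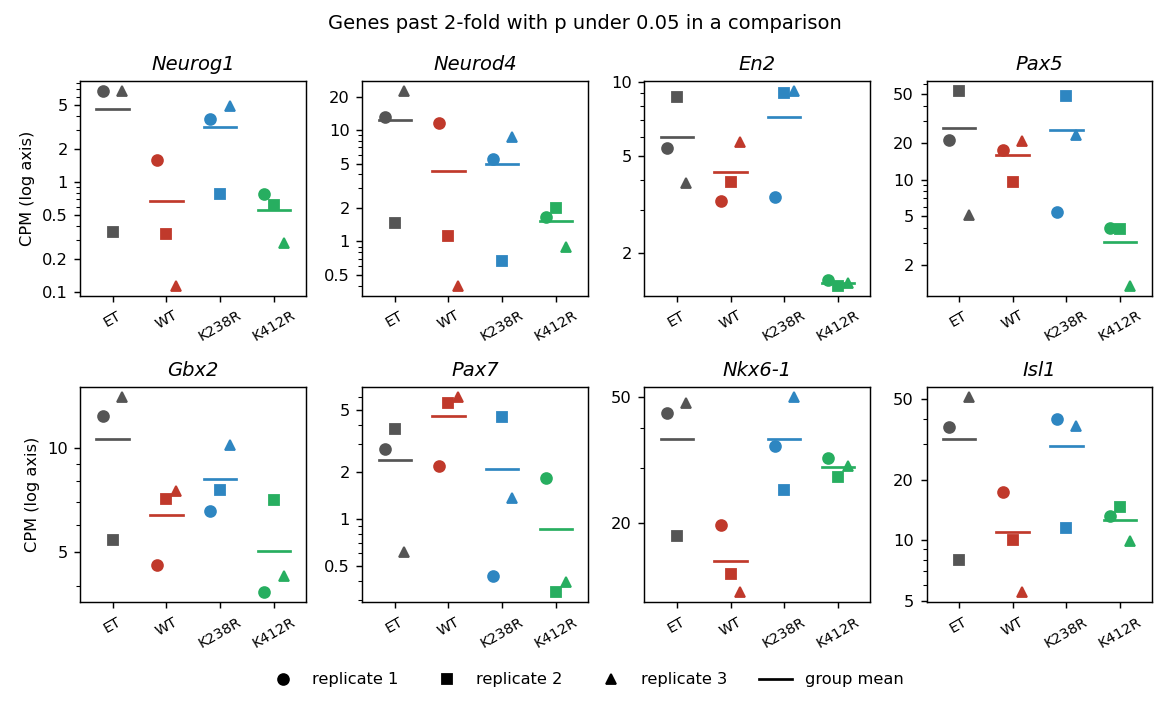
CPM on log axes (vertical) in the 4 groups (horizontal, 1 symbol per replicate, line at the group mean) for the 8 genes past the 2-fold criterion in at least 1 comparison. The K412R libraries of En2 (1.47 to 1.56 CPM) and of Pax5 (1.35 to 4.01 CPM) lie below all others, while ET replicate 2 (grey square) lies apart from the other ET libraries for Neurog1, Neurod4, Nkx6-1 and Isl1.

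The hindbrain was represented by Egr2 and Atoh1. Egr2, which specifies alternate rhombomeres and also acts in myelinating Schwann cells, stood at 3.0 ± 0.257 CPM in ET (SD, n = 3), 2.7 ± 0.544 in WT, 1.90 ± 0.573 in the K238R-labelled libraries and 3.12 ± 1.03 in K412R. The K238R-labelled libraries lay below all ET libraries (log2 fold change -0.68, SE 0.31, adjusted p = 0.805). Atoh1, the factor of the rhombic lip that makes cerebellar granule cells, had at most 10 counts, in replicate 1 of the K238R-labelled libraries (0.539 CPM), and 0 or 1 count in 9 of the 12 libraries.

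Of the ventral neural tube genes, Nkx6-1 was lowest in WT and differed by over 2-fold from both ET and the K238R-labelled libraries. Nkx6-1, which specifies motor neuron and ventral interneuron progenitors, was at 44.7, 18.3 and 48.1 CPM in ET, 19.8, 13.9 and 12.2 in WT, 35.0, 25.6 and 50.1 in K238R-labelled libraries, and 32.3, 28.0 and 30.4 in K412R. Every library labelled K238R and every K412R library lay above all WT libraries, and ET did too apart from replicate 2, which lay between WT replicates 2 and 1. The log2 fold change was -1.26 in WT against ET (SE 0.33, adjusted p = 0.103), 1.23 in the K238R-labelled libraries against WT (0.33, adjusted p = 0.114) and 0.97 in K412R against WT (0.33, adjusted p = 0.122).

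In WT against ET, Nkx6-1 met the 2-fold criterion in all 12 fits that leave out a library, with log2 fold changes between -1.58 and -1.01. It passed the adjusted threshold without ET replicate 2 (adjusted p = 0.00387), without WT replicate 1 (0.0466), with DESeq2 (0.00741) and with replicate numbers entered as a block (0.0480). The adjusted p over all alternatives lay between 0.00387 and 0.374. In the K238R-labelled libraries against WT the criterion was lost without replicate 3 of those libraries (0.96), and the adjusted p lay between 0.00951 and 0.364. Between K412R and ET the log2 fold change was -0.29 (SE 0.32), and between the K238R-labelled libraries and ET it was -0.03 (0.32).

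Nkx2-2, the neighbour of Nkx6-1 in the most ventral progenitors and a factor of oligodendrocyte differentiation, was also lowest in WT, by less. It was at 29.8, 17.3 and 28.2 CPM in ET, 18.4, 20.3 and 15.1 in WT, 32.2, 26.8 and 32.2 in K238R-labelled libraries, and 21.0, 26.0 and 23.4 in K412R. The K238R-labelled and the K412R libraries each lay above WT without overlap. The log2 fold change of the K238R-labelled libraries against WT was 0.72 (SE 0.19, adjusted p = 0.111), under 2-fold, and that of WT against ET was -0.46 (0.19, adjusted p = 0.145). Both genes are also transcribed in pancreatic endocrine cells. The 8 pancreas and enteroendocrine markers summed to 47.0 to 117 CPM in ET and 92.4 to 148 in WT, chiefly through Chga and Sst, which neurons also transcribe, and Pdx1, Ins1 and Ins2 were at or under 0.226 CPM in every library.

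Isl1, a LIM factor of motor and sensory neurons and also of cardiac progenitors, was at 36.3, 7.96 and 51.4 CPM in ET, 17.3, 10.04 and 5.53 in WT, 40.0, 11.4 and 36.7 in K238R-labelled libraries, and 13.1, 14.6 and 9.88 in K412R. Its high libraries were those with high Neurog1, namely ET replicates 1 and 3 and replicates 1 and 3 of the K238R-labelled libraries, and its groups overlapped. In WT against ET the log2 fold change was -1.53 (SE 0.62, adjusted p = 0.139). It lost the criterion without ET replicate 1 (-1.45), ET replicate 3 (-0.99), WT replicate 2 (-1.48) or WT replicate 3 (-1.23), and without ET replicate 2 it was -1.98 with an adjusted p of 0.0134. Over the alternatives its adjusted p ran from 0.0134 to 0.474.

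In the K238R-labelled libraries against WT, Isl1 had a log2 fold change of 1.38 (SE 0.62, adjusted p = 0.274). The criterion held in 4 of the 12 fits that leave out a library, with log2 fold changes between 1.08 and 1.85. It was lost without ET replicate 1, WT replicates 2 or 3, replicates 1 or 3 of the K238R-labelled libraries, or any 1 K412R library. Against ET, K412R lay at -1.34 (SE 0.61, adjusted p = 0.629). The 8 heart markers summed to 39.9 to 148 CPM in ET and 99.4 to 411 in WT. Their sum was 51.5 to 177 CPM in the K238R-labelled libraries and 55.6 to 67.1 in K412R. Actc1 reached 295 CPM, Ryr2 71.7, Tnnt2 38.3, Myh6 20.0 and Tnni3 10.1. In every library Nkx2-5 was at or under 0.335 CPM, Nppa 0.786 and Myl7 0.431. Actc1 and Tnnt2 were highest in WT replicates 2 and 3, the libraries with the highest skeletal muscle sums (2256 and 914 CPM). The part of heart cells in the level of Isl1 was not tested.

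**Figure D4:**
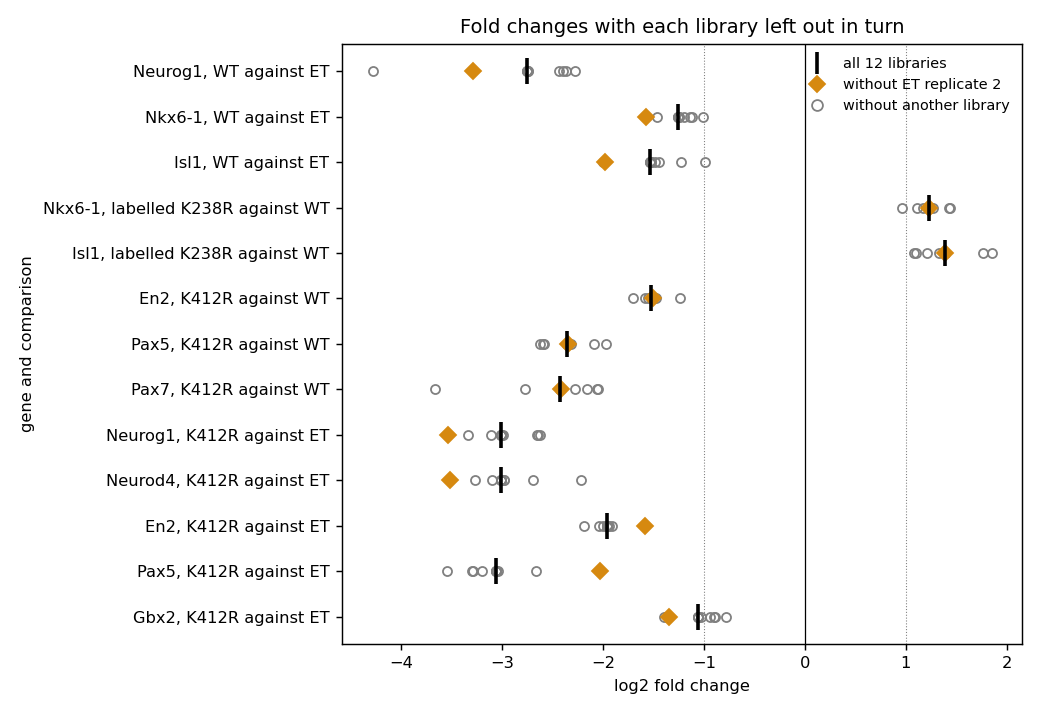
Log2 fold change (horizontal axis) of each gene and comparison past the 2-fold criterion (vertical axis) with all 12 libraries (bar) and with each library left out in turn (circles, diamond for ET replicate 2), and dotted lines at 2-fold. Signs held throughout, while Neurog1 in WT against ET ran from -4.28 to -2.28 and Pax5 in K412R against ET reached -2.04 without ET replicate 2.

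Lhx1 and Lhx5, related LIM factors of spinal and brain interneurons, were each highest in the K238R-labelled libraries and lowest in K412R. Lhx5 was at 12.1, 8.02 and 9.67 CPM in ET, 10.3, 11.5 and 12.2 in WT, 18.7, 12.7 and 18.3 in K238R-labelled libraries, and 8.97, 7.41 and 7.02 in K412R. The K238R-labelled libraries lay above all libraries of the other groups and K412R lay below all of WT. The log2 fold change of Lhx5 was 0.72 in the K238R-labelled libraries against ET (SE 0.19, adjusted p = 0.805), 0.50 against WT (0.19, adjusted p = 0.219) and -0.56 in K412R against WT (0.20, adjusted p = 0.131). Lhx1 stood at 20.7 ± 4.41 CPM in ET, 20.0 ± 3.75 in WT, 26.9 ± 6.39 in the K238R-labelled libraries and 14.3 ± 1.10 in K412R, with K412R below all ET and all WT libraries (log2 fold change -0.52 and -0.50, SE 0.21 in both, adjusted p = 0.589 and 0.189).

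Irx3, an Iroquois factor of the middle of the neural tube, varied little and was lowest in K412R, at 14.7 ± 0.587 CPM (SD, n = 3) beside 18.7 ± 1.57 in ET, 19.8 ± 3.38 in WT and 18.3 ± 2.85 in the K238R-labelled libraries. K412R did not overlap ET (log2 fold change -0.34, SE 0.14, adjusted p = 0.596) or WT (-0.45, 0.14, adjusted p = 0.104). Dbx1, a marker of the progenitors of V0 interneurons, ranged from 3.28 CPM in K412R to 15.8 CPM in the K238R-labelled libraries with all groups overlapping. Mnx1, the motor neuron factor Hb9, ranged from 0.111 to 1.06 CPM with 2 to 19 counts, and in WT against ET it had a log2 fold change of -1.25 (SE 0.73, adjusted p = 0.258).

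Of the dorsal genes, Zic1 stood at 46.7 ± 18.9 CPM in ET, 60.2 ± 19.6 in WT, 66.9 ± 10.7 in the K238R-labelled libraries and 53.2 ± 3.6 in K412R. The only pair of groups that did not overlap was K412R (49.3 to 56.4 CPM) below the K238R-labelled libraries (58.2 to 78.8 CPM). Pax3, a factor of dorsal neural tube, neural crest and muscle precursors, stood at 8.09 ± 1.74 CPM in ET, 8.75 ± 0.514 in WT, 6.44 ± 1.92 in the K238R-labelled libraries and 7.76 ± 2.83 in K412R. The K238R-labelled libraries lay below all WT libraries, though by little (log2 fold change -0.49, SE 0.27, adjusted p = 0.350).

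Pax7, of dorsal neural tube and of muscle satellite cells, was at 2.79, 3.77 and 0.612 CPM in ET, 2.19, 5.52 and 6.05 in WT, 0.431, 4.5 and 1.36 in K238R-labelled libraries, and 1.84, 0.339 and 0.393 in K412R. K412R lay below WT without overlap (log2 fold change -2.43, SE 0.90, adjusted p = 0.146). The criterion was lost without WT replicate 3 (-2.16), K412R replicate 2 (-2.06) or K412R replicate 3 (-2.05), and the log2 fold change reached -3.66 without K412R replicate 1. DESeq2 gave an adjusted p of 0.0417, and alternatives gave 0.0417 to 0.389.

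Skeletal muscle markers were read beside Pax7. The 8 of them summed to 265, 337 and 70.2 CPM in ET, 262, 2256 and 914 in WT, 173, 426 and 22.0 in K238R-labelled libraries, and 105, 78.3 and 81.7 in K412R, and none was at 0 in every library. In K412R against WT, 5 of the 8 were lower with an unadjusted p under 0.05 and none was higher, beside 22.8% of all genes in either direction. None of the 8 passed the adjusted threshold. The 2 libraries with the highest muscle sums, WT replicates 2 and 3, were also those with the highest Pax7. The order did not hold in every library. Replicate 1 of the K238R-labelled libraries had a sum of 173 CPM with Pax7 at 0.431 CPM. Replicate 3 of them had the lowest sum, 22.0 CPM, with Pax7 at 1.36 CPM. The part of muscle in the Pax7 level was not tested.

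**Figure D5:**
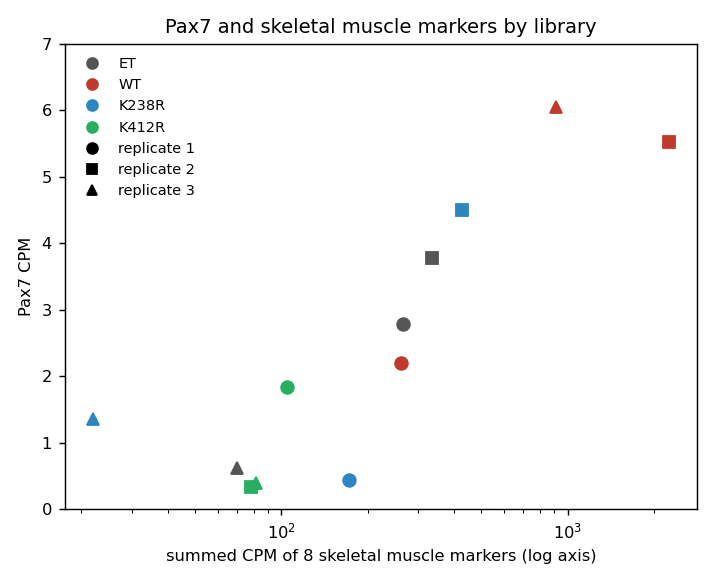
Pax7 in CPM (vertical axis) against the summed CPM of 8 skeletal muscle markers (horizontal log axis) in the 12 libraries, coloured by group with 1 symbol per replicate. WT replicates 2 and 3 lie at the upper right (5.52 and 6.05 CPM) and K412R replicates 2 and 3 at the lower left (0.339 and 0.393 CPM).

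Other regional genes were read as a second list of 58 genes with none of the above in it, of which 58 had a row and 55 were tested. By the 2-fold criterion, 2 were higher and 9 lower in WT than in ET, beside 6.08% of all genes in either direction. In the K238R-labelled libraries 8 were higher and 0 lower than in WT, beside 5.28% of all genes. In K412R 5 were higher and 3 lower than in WT, beside 5.05%. Against ET, 1 was higher in the K238R-labelled libraries (0.951% of all genes) and 3 were lower in K412R (1.59%). After adjustment by edgeR's quasi-likelihood test, 2 genes passed, both in K412R against WT, where 2.02% of all genes did. Eomes was one of them. Eomes, a factor of intermediate cortical progenitors and of mesendoderm, was at 5.29, 8.37 and 6.56 CPM in ET, 3.71, 2.17 and 1.60 in WT, 6.79, 3.89 and 4.40 in K238R-labelled libraries, and 8.08, 6.39 and 5.56 in K412R (log2 fold change 1.41, SE 0.32, adjusted p = 0.0483). No gene of the second list passed after adjustment in the other 4 comparisons.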

How the data were processed

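RNA of 12 teratomas (3 each of ET, WT, K238R and K412R by their titles) was sequenced from CORALL libraries. Per the labels and the methods of the study, the authors used fastp for trimming, STAR for mapping and Salmon for quantification. What they deposited is 1 estimated count per gene and library, in whole numbers and not normalized. The submitters' processing notes name the build GRCm39 and also list GATK, with no role given. Read strand in counting and tool versions are not given in the sources used here.

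Counts were scaled to library totals as CPM, and levels per kb used the median length of protein-coding transcripts in the GENCODE annotation of GRCm38. The main test was edgeR's (4.0.16, R 4.3.3) quasi-likelihood test with TMM scaling, 1 mean per group over all 12 libraries and filterByExpr, with Benjamini-Hochberg adjustment over 18405 genes. Calls were an adjusted p under 0.05, or at least 2-fold with an unadjusted p under 0.05. The study's own test was DESeq2 (1.42.0 here), used as an alternative, with RLE scaling, no filter, 2 groups alone, a replicate block and each library left out. On simulated data for WT against ET, 198 of 200 genes changed 4-fold were recovered over 18181 genes, with 15 false calls. The changed genes were drawn only from well-counted genes, and no outlying library was simulated. The recovery therefore does not cover low genes such as Neurog1 (mean 2.25 CPM) and Pax7 (2.48 CPM), or a group with a library like ET replicate 2. Library totals were 16957677 to 18546100 counts, and floors cover counting error only.

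All members of the list were named, and those past either threshold in any comparison were given in every library. From the second list only genes past the adjusted threshold were named, and a result that is withheld is not reported here. The members and lists were chosen with earlier results of these data known. Promoter windows came from RefSeq (GRCm38.p6) by symbol, with no coordinates carried between builds.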

Additional observations from a re-analysis of the deposited data

How the results depend on the processing

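With all 12 libraries, edgeR's quasi-likelihood test called 0 of the 38 genes past the adjusted threshold in each of the 5 comparisons. DESeq2 called 1 in WT against ET, 2 in the K238R-labelled libraries against WT, 3 in K412R against WT and 1 in K412R against ET. No filter on low counts gave 1 in the K238R-labelled libraries against WT (0.875% of all genes) and 1 in K412R against WT (1.98%). A fit of 2 groups alone gave 1 and 5 in the same comparisons, beside 2.03% and 10.7% of all genes. RLE scaling gave 0 in all 5, beside 0.0% to 1.98% of all genes. With each library left out, the counts ran from 0 to 9 in WT against ET, beside 0.0% to 31.0% of all genes. They ran from 0 to 2 in the K238R-labelled libraries against WT (0.0106% to 4.3%) and 0 to 2 in K412R against WT (0.0532% to 8.2%). Against ET, the K238R-labelled libraries (0.0% of all genes) and K412R (0.0% to 1.36%) stayed at 0. By the 2-fold criterion (3, 2, 3, 0 and 5 genes in the order WT against ET, labelled K238R against WT, K412R against WT, labelled K238R against ET and K412R against ET), leaving out a library gave 1 to 5, 1 to 6, 1 to 5, 0 to 2 and 2 to 8. In the same order, 2.87% to 13.7%, 4.34% to 7.47%, 3.86% to 7.61%, 0.952% to 2.22% and 1.21% to 4.61% of all genes met it in those fits. The member counts in the other alternatives stayed within 1.5 times. The causes were not tested. Same-numbered libraries deviated from their group means with correlations between -0.26 and 0.39, and no comparison had all 3 above 0.1, so the numbers were not taken as pairs. With the replicate block, 1 gene, Nkx6-1, was called in WT against ET, beside 4.98% of all genes, and 0 in the others. No log2 fold change of the 13 gene and comparison pairs past the 2-fold criterion changed sign under any alternative. Of the second list, DESeq2 called 10, 5, 11, 0 and 1 genes after adjustment, beside 0, 0, 2, 0 and 0 by edgeR. The shares of all genes that DESeq2 called were 11.1%, 4.13%, 9.26%, 0.029% and 0.472% in the same order. The 2 edgeR calls in K412R against WT were both absent without WT replicate 2, WT replicate 3, K412R replicate 1 or K412R replicate 3.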
